A study of Bos taurus with 14 samples.

Results

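The miR-26 family is a small group of closely related microRNAs (miRNAs). Its members were taken by name, as the rows for bta-miR-26a, bta-miR-26b and bta-miR-26c in the library files, and bta marks a bovine name. Of these 3 names, 2 had rows, out of 932 names in all library files together, 723 of them bovine. bta-miR-26a and bta-miR-26b were listed in 14 of 14 libraries. bta-miR-26c had no row in the tables used here and has no value below. These files list no count under 2, so no upper limit is given for it.

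A mature miRNA is loaded into an Argonaute protein and guides it to messenger RNAs that pair with the seed near its 5′ end, which lowers the output of those messengers. The miR-26 hairpins lie in introns of genes for small C-terminal domain phosphatases (the CTDSP genes) and are made from the same transcripts as these hosts. miR-26a is widely expressed and is known for restraining growth, in part by repressing EZH2, the histone methyltransferase of Polycomb repressive complex 2.

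Blood came from 4 non-lactating Holstein cows with a rumen cannula, each sampled first on a forage diet (FD, 0% concentrate) and later in week 1 of high-grain feeding (HG, 65% concentrate). Small RNA was sequenced from cell-free plasma of cows 1 to 4 (8 libraries) and from leucocytes taken from the buffy coat of cows 1, 3 and 4 (6 libraries). FD always came before HG and no cow stayed on FD, so diet and time cannot be told apart. Plasma and leucocyte RNA were extracted with different kits from different amounts of material, and this cannot be told apart from the sample type.

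A plasma library held 376589 to 4464702 reads with a miRNA name (39.3% to 72.0% of its reads), and a leucocyte library 21764578 to 66070772 (83.4% to 91.7%), as recovered from the deposited scaled values to within a few reads. The 6 leucocyte markers fixed for the check of the labels (among them bta-miR-223 and bta-miR-142-5p) were all read in every group. They took 2.29% to 3.41% of the counts in leucocyte libraries and 1.64% to 3.48% in plasma. The 5 erythrocyte markers, led by bta-miR-451, took 21.03% to 37.5% in leucocytes, far more than the leucocyte list, and 4.70% to 12.6% in plasma. These lists hold bovine names only, while the total also counts human names, so the sums leave out human entries of the same miRNAs. In HG leucocytes of cow 4, bta-miR-451 took 30.9% and the human name hsa-miR-451a 0.0496%. In the other leucocyte libraries hsa-miR-451a took 13.65% to 20.4%, so the top of the range is not on the same footing. No marker was at 0 in a whole group. The part of red cells in the results below was not tested.

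The deposited coordinates are those of the bovine build UMD3.1. bta-miR-26a was listed at the precursor bta-mir-26a-2, chr5:55977936-55977957 on the plus strand, a span of 22 bases. A RefSeq gene table of another build, ARS-UCD2.0, places this precursor inside CTDSP2 on chromosome 5 and a further precursor of the same miRNA, MIR26A-1, inside CTDSPL on chromosome 22. The library files give no separate row for that further locus, and they mark the bta-miR-26a row as a duplicate in 14 of 14 libraries. bta-miR-26b was listed at chr2:107133408-107133429 on the plus strand, also 22 bases, and RefSeq places MIR26B inside CTDSP1 on chromosome 2. The RefSeq table lists MIR26C over the span of MIR26A-1.

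The 3′ arms of both hairpins were listed under human names (hsa). hsa-miR-26a-2-3p lay at chr5:55977974-55977995, 16 bases past the end of bta-miR-26a. hsa-miR-26b-3p lay at chr2:107133443-107133463, 13 bases past the end of bta-miR-26b. The 5′ arms also had human entries at the same places. Reads of hsa-miR-26a-5p equalled those of bta-miR-26a in 14 of 14 libraries. hsa-miR-26b-5p ends 1 base earlier than bta-miR-26b, and it had the same reads in the 8 plasma libraries and 8 to 25 fewer in each leucocyte library.

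Reads that fit several names or places are shared out in the deposited estimated counts, and the members were treated unequally. Each read of bta-miR-26a contributed 0.25 to 0.251 of an estimated count, and each read of bta-miR-26b 0.500. A comparison of the members with each other on estimated counts therefore understates bta-miR-26a about 2-fold relative to the reads. Comparisons of 1 name between libraries do not carry this difference, since its share per read was nearly the same in all 14 libraries.

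bta-miR-26a was among the most abundant bovine miRNAs of leucocytes and was more variable in plasma. By reads it ranked 4 to 5 among bovine names in leucocytes and 5 to 17 in plasma, and bta-miR-26b ranked 21 to 23 and 12 to 40. bta-miR-26a took 3.71% to 5.19% of the reads assigned to miRNAs in leucocytes and 1.98% to 4.69% in plasma. bta-miR-26b took 0.783% to 1.01% and 0.560% to 2.09%. In the shallowest library, FD plasma of cow 1, 2783 reads of bta-miR-26b made up 0.739% of the assigned reads (95% Wilson interval 0.712% to 0.767%). Such intervals address counting error only and treat reads as independent molecules. Reads without molecular identifiers are not, so the intervals can be too narrow even for counting error. They are far narrower than the differences between cows.

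Levels are given below as CPM, the estimated count of a name scaled to a library total of 1e6 estimated counts. bta-miR-26a in FD plasma had 14217 CPM in cow 1, 6334 in cow 2, 6848 in cow 3 and 7009 in cow 4. In HG plasma of the same cows it had 16529, 12021, 13886 and 7343 CPM. The level was higher on HG in each of the 4 cows, by little in cow 4, and the groups overlapped because cow 1 was already high on FD. In leucocytes of cows 1, 3 and 4 it had 11025, 10891 and 15475 CPM on FD and 11353, 11950 and 13445 CPM on HG. There the diets overlapped fully, with higher values on HG in cows 1 and 3 and a lower one in cow 4.

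bta-miR-26b had 4761, 3569, 5880 and 6649 CPM in FD plasma of cows 1 to 4 and 14673, 6740, 6995 and 5705 CPM in HG plasma. Cow 1 on HG stood far above the other 7 plasma libraries, and only in cow 4 was HG the lower diet. In leucocytes of cows 1, 3 and 4 it had 5285, 5774 and 6003 CPM on FD and 5337, 5276 and 4587 CPM on HG. The 6 leucocyte libraries lay closer together than the plasma libraries of either diet.

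**Figure D1:**
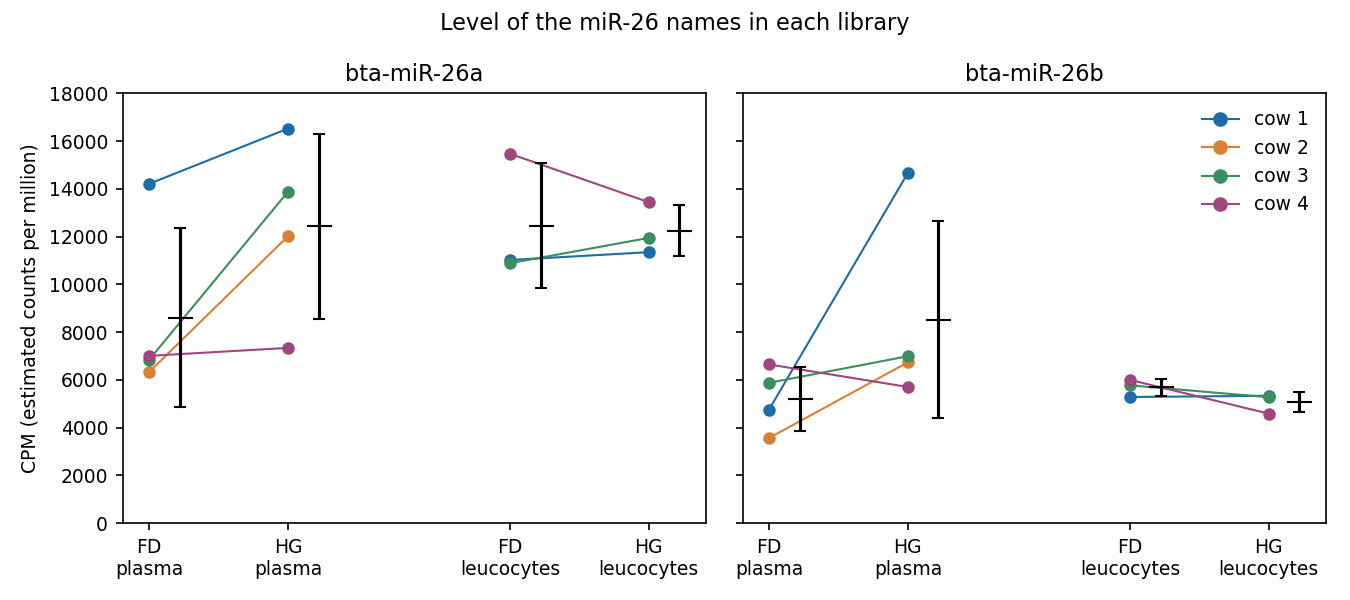
CPM of bta-miR-26a and bta-miR-26b (y axis, from 0) in each of 14 libraries, by diet and sample type, with lines joining the libraries of a cow and black marks for the group mean and SD. In plasma bta-miR-26a went up from FD to HG in all 4 cows, and bta-miR-26b in HG plasma of cow 1 reached 14673 CPM.

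Ordered by mean, bta-miR-26a had 12463 ± 2609 CPM (SD, n = 3) in FD leucocytes, 12445 ± 3872 (SD, n = 4) in HG plasma, 12250 ± 1078 (SD, n = 3) in HG leucocytes and 8602 ± 3754 (SD, n = 4) in FD plasma. Each pair of neighbours in this order overlapped and differed by less than the larger of their SDs. For bta-miR-26b the order was HG plasma with 8528 ± 4134 CPM (SD, n = 4), FD leucocytes with 5687 ± 367 (SD, n = 3), FD plasma with 5215 ± 1344 (SD, n = 4) and HG leucocytes with 5067 ± 417 (SD, n = 3). Neighbours overlapped here as well. In these bulk samples, a change in the mix of cells that release or hold a miRNA and a change in its amount per cell cannot be told apart.

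The first comparison asked whether the grain diet changed the members in plasma. As a share of all estimated counts, bta-miR-26a went from a mean of 0.860% to 1.24%, a paired difference of 0.384 ± 0.307 percentage points (SD) that was positive in each of the 4 cows. An exact permutation test (two-sided, flipping the sign of each cow's difference) gave p = 0.13, and with 4 cows no smaller p can be had, so this design could not pass 0.05. For bta-miR-26b the paired difference was 0.331 ± 0.471 percentage points (SD, positive in 3 cows, p = 0.25 by the same exact test). Its mean difference was smaller than its spread between cows.

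In the edgeR fit over all 536 names tested in plasma, neither member passed an adjusted p of 0.05. bta-miR-26a had a log2 fold change (HG over FD) of 0.16 (SE 0.411, 95% interval -0.78 to 1.10, edgeR adjusted p = 0.957). For bta-miR-26b it was 0.20 (SE 0.587, 95% interval -1.14 to 1.54, edgeR adjusted p = 0.960). The median over all names in this fit was 0.26, so both members lay slightly below it, by -0.11 and -0.07. Scaled by library size alone, bta-miR-26a had 0.56 (SE 0.403) and bta-miR-26b 0.64 (SE 0.441), beside a median of 0.64, and neither passed. edgeR called 0 of the 536 names (0%), with 46 at an unadjusted p under 0.05, and DESeq2 called 10 names, neither member among them. The 95% intervals above leave room for a 2-fold rise of bta-miR-26a, though not for a 2-fold fall, and for a 2-fold change either way in bta-miR-26b.

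The sign of the TMM-scaled log2 fold change depended on cow 1. Without this cow it was -0.03 for bta-miR-26a (SE 0.295) and -0.39 for bta-miR-26b (SE 0.333), while the differences in share stayed positive, at 0.435 and 0.111 percentage points. Other measures moved with the diet in plasma. The share of reads with a miRNA name was 39.3% to 58.1% on FD and 59.3% to 72.0% on HG, without overlap, and the files listed 410 to 454 names on FD and 504 to 538 on HG. The leucocyte markers took 1.64% to 2.57% of counts on FD and 2.37% to 3.48% on HG, with overlap. In the TMM-scaled edgeR fit, however, these 6 markers had log2 fold changes from -0.17 to 0.24, beside a median of 0.26 over all names. The erythrocyte markers overlapped widely, at 6.75% to 12.6% on FD and 4.70% to 12.5% on HG. The part of these in the values of the members was not tested. The FD library of cow 1 was the shallowest and its HG library the deepest of the plasma libraries.

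In leucocytes the same comparison gave narrower intervals. bta-miR-26a had a log2 fold change of 0.00 (SE 0.121, 95% interval -0.26 to 0.27, edgeR adjusted p = 1.0), beside a median of -0.02 over the 779 names tested. bta-miR-26b had -0.16 (SE 0.128, 95% interval -0.44 to 0.13, edgeR adjusted p = 0.621). Neither passed, in a fit that called 14 of 779 names (1.8%). A change of bta-miR-26a by more than about 1.2-fold either way lay outside its interval, but this limit rests on all 3 cows, since the SE was 0.299 without cow 1 and 0.371 without cow 3.

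As shares of estimated counts in leucocytes, bta-miR-26a differed between the diets by -0.0214 ± 0.161 percentage points (SD, higher in 2 of 3 cows) and bta-miR-26b by -0.0620 ± 0.0742 (higher in 1 of 3). By the same exact permutation test p was 1.0 and 0.50, where 3 cows allow no p under 0.25. HG leucocytes of cow 4 need a remark, made after the values were seen. There hsa-miR-451a, an erythrocyte miRNA, was listed at 0.0496% of estimated counts against 13.7% to 20.4% in the other 5 leucocyte libraries, while bta-miR-451 took 30.9% against 14.4% to 21.4%. Over the reads assigned to miRNAs, each counted once, the difference for bta-miR-26a was -0.0273 ± 0.522 percentage points (SD, 2 of 3 cows higher). Over undivided reads, which count in full at each name, it was 0.107 with 3 of 3 cows higher. In cow 4 the undivided total was 39722104 beside 27548674 assigned reads on HG, and 36305474 beside 21764578 on FD. Such a total shrinks where a second name for the same reads is not listed, so the turn to 3 of 3 cannot be read as a rise in cow 4. Its share of assigned reads went from 5.19% to 4.57%.

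**Figure D2:**
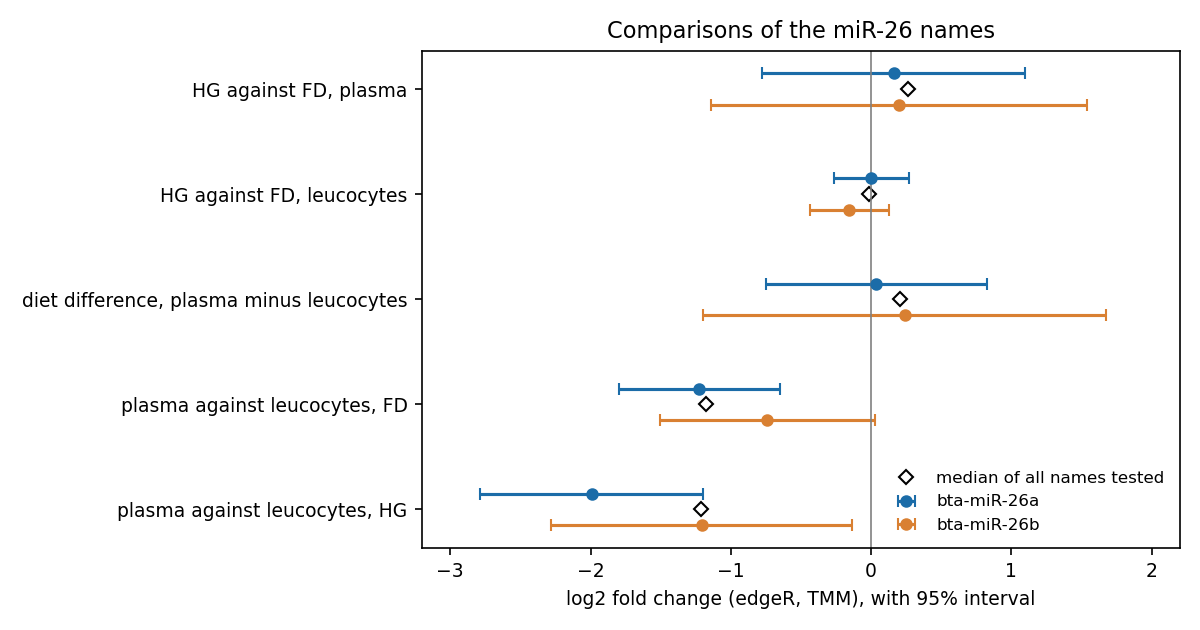
Log2 fold changes from edgeR (x axis) with 95% intervals for bta-miR-26a (blue) and bta-miR-26b (orange) in 5 comparisons, with diamonds for the median of all names tested. The diet intervals include 0 for both members, and in both comparisons of plasma with leucocytes bta-miR-26a lies below 0.

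A test of whether the diet difference in plasma departs from that in leucocytes did not pass the threshold for either member. The difference of the log2 fold changes was 0.04 for bta-miR-26a (SE 0.349, 95% interval -0.75 to 0.82, edgeR adjusted p = 1.0). It was 0.24 for bta-miR-26b (SE 0.635, 95% interval -1.20 to 1.68, edgeR adjusted p = 1.0). edgeR called 0 of 797 names (0%) here, with 93 at an unadjusted p under 0.05, and DESeq2 called 14.

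The next comparison set plasma against leucocytes within each diet. On FD, bta-miR-26a was lower in plasma by a log2 fold change of -1.22 (SE 0.254, 95% interval -1.80 to -0.65, edgeR adjusted p = 0.00773). bta-miR-26b had -0.74 (SE 0.339, 95% interval -1.505 to 0.02, edgeR adjusted p = 0.104) and did not pass. Thus 1 of 2 members was called, in a fit that called 321 of 745 names (43.1%) and 25.8% as lower in plasma. Without cow 3 the call of bta-miR-26a was lost (-1.20, edgeR adjusted p = 0.0763), and without cow 1 its value was -2.0.

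On HG, bta-miR-26a again was lower in plasma, by -1.99 (SE 0.346, 95% interval -2.79 to -1.20, edgeR adjusted p = 0.00303). bta-miR-26b had -1.21 (SE 0.467, 95% interval -2.28 to -0.13, edgeR adjusted p = 0.0563) and missed the threshold. With cows as blocks (cows 1, 3 and 4) it passed, at -1.24 (edgeR adjusted p = 0.0327). Of 732 names, 397 were called (54.2%), 38% as lower in plasma.

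These values rest on how libraries of such different make-up are scaled. The trimmed mean of M-values (TMM) factors of the HG fit were 1.45 to 2.28 for plasma and 0.405 to 0.479 for leucocytes, and those of the FD fit were 1.04 to 1.68 and 0.704 to 0.943. With library size alone, bta-miR-26a stood at -0.54 on FD (edgeR adjusted p = 0.271) and 0.02 on HG (edgeR adjusted p = 0.954), and bta-miR-26b at -0.12 and 0.75. The whole table moved along, since the median over all names went from -1.18 to -0.54 on FD and from -1.21 to 0.78 on HG. The split of called names on HG turned from 119 higher and 278 lower in plasma to 236 higher and 79 lower, and with median-of-ratios scaling it was 146 and 236. On FD it was 129 and 192 under TMM, 166 and 128 with library size alone and 109 and 223 with median-of-ratios scaling.

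A change of scaling shifts all names by about the same amount, so the distance of a member from the median is nearly fixed and its likeness over scalings is no sign of stability. On FD bta-miR-26a lay at the median under all 3 scalings (-0.05 to 0.00 on the log2 scale), while bta-miR-26b lay 0.39 to 0.43 above it. On HG bta-miR-26a lay below the median by -0.78 to -0.76 and bta-miR-26b lay near it (-0.04 to 0.01). In both diets, bta-miR-26a was thus the lower of the pair in plasma relative to leucocytes, and this gap between the members was not tested.

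**Figure D3:**
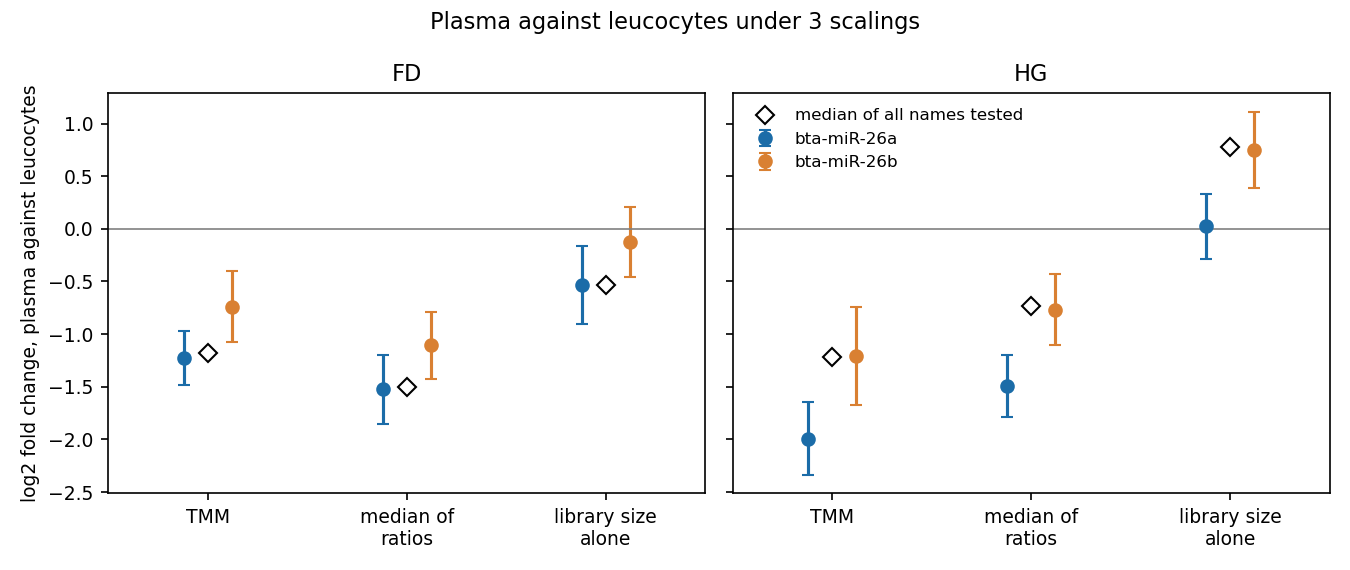
Log2 fold change of plasma against leucocytes (y axis) for bta-miR-26a and bta-miR-26b with SE bars, and the median of all names (diamonds), under 3 scalings on FD (left) and HG (right). All 3 move together between scalings, and on HG bta-miR-26a lies under the median by -0.78 to -0.76.

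Markers of other sources differed between the sample types as well. The pair bta-miR-126-3p and bta-miR-126-5p, typical of platelets and endothelium, took 0.317% to 0.716% of counts in plasma and 0.00537% to 0.0245% in leucocytes. The liver pair bta-miR-122 and bta-miR-192 took 0.945% to 9.003% in plasma and 0.0655% to 0.0876% in leucocytes. Within plasma the liver pair ranged from 0.945% to 9.003% on FD and from 1.70% to 4.19% on HG. Their part in the plasma values of the miR-26 members was not tested.

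The ratio of bta-miR-26a to bta-miR-26b within a library needs no scaling. In FD plasma of cows 1 to 4 there were 5.96, 3.54, 2.33 and 2.11 reads of bta-miR-26a for each read of bta-miR-26b, and in HG plasma 2.25, 3.56, 3.96 and 2.57. Cow 1 had the highest ratio of plasma on FD and the lowest of the HG libraries, and in the other 3 cows the ratio was higher on HG, by very little in cow 2. In leucocytes of cows 1, 3 and 4 the ratio was 4.15, 3.76 and 5.13 on FD and 4.23, 4.51 and 5.84 on HG, higher on HG in 3 of 3 cows.

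On estimated counts, the log2 ratio was 0.68 ± 0.68 (SD, n = 4) in FD plasma, 0.59 ± 0.39 (SD, n = 4) in HG plasma, 1.11 ± 0.23 (SD, n = 3) in FD leucocytes and 1.27 ± 0.25 (SD, n = 3) in HG leucocytes. The paired change from FD to HG was -0.09 ± 0.94 in plasma (SD, n = 4 cows), larger on HG in 3 of 4, and without cow 1 it was 0.35. In leucocytes it was 0.16 ± 0.12 (SD, n = 3 cows), a little larger than its spread. No test was made of this ratio.

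**Figure D4:**
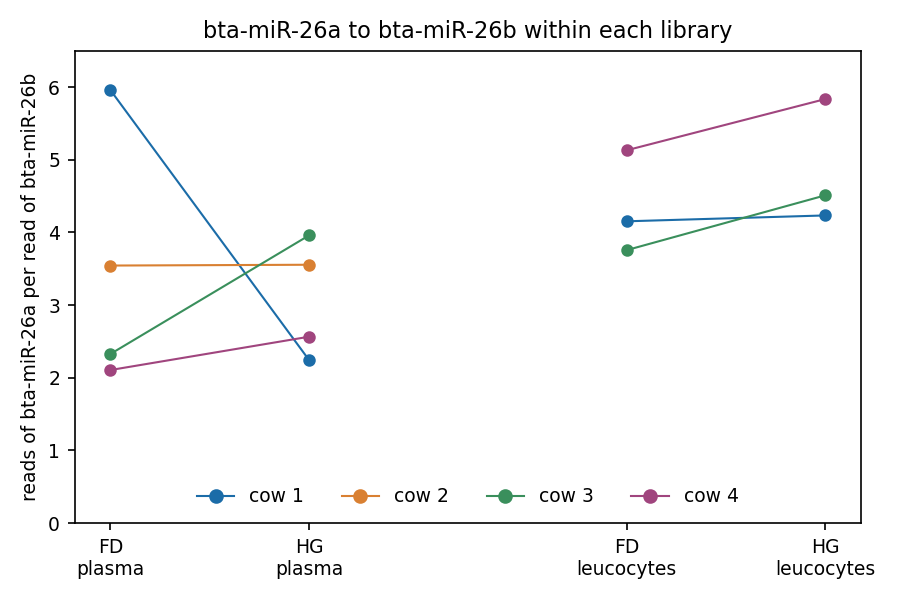
Reads of bta-miR-26a for each read of bta-miR-26b (y axis, from 0) in 14 libraries by diet and sample type, with lines joining the libraries of a cow. Plasma spans 2.11 to 5.96 and cow 1 goes against the others, while the 6 leucocyte libraries span 3.76 to 5.84 and each cow goes up.

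The members also differed in how closely they moved together. As a measure of likeness, the SD over libraries of the log2 ratio of 2 names was taken, where a small value means parallel levels. In plasma (8 libraries, 109 bovine names with at least 100 counts in each) the names most like bta-miR-26a were bta-miR-103 (SD 0.271), bta-miR-30c (0.317) and bta-miR-21-5p (0.332), against a median of 0.764 over the names. bta-miR-26b came 16th, at 0.516. In leucocytes (6 libraries, 249 names) bta-miR-425-5p (0.0755), bta-miR-425-3p (0.0803) and bta-miR-421 (0.0861) came first, the median was 0.342, and bta-miR-26b came 64th, at 0.230. These are descriptions over libraries that share cows and depth, with no test.

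The 3′ arms are the strands usually discarded when the hairpin is processed, and they were rare in every library. In leucocytes bta-miR-26a had 2663 to 7733 reads for each read of hsa-miR-26a-2-3p, and bta-miR-26b had 496 to 792 for each read of hsa-miR-26b-3p. In plasma these ratios ran from 132 to 15977 and from 35.8 to 6066. Reads of bta-miR-26a can come from either of its precursors, while hsa-miR-26a-2-3p was listed at the 26a-2 hairpin alone. Its ratio is therefore not that of a single hairpin and may overstate the lead of the 5′ arm there. The name of the 5′ arm led in all 14 libraries, by a factor that varied far more in plasma.

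In leucocytes of cows 1, 3 and 4, hsa-miR-26a-2-3p had 13.9, 13.9 and 6.71 RPM (reads scaled to 1e6 assigned reads) on FD and 10.4, 8.75 and 6.28 RPM on HG. It was lower on HG in 3 of 3 cows, with a log2 fold change of -0.41 (SE 0.203, edgeR adjusted p = 0.396). Leaving out cow 4 brought it past the threshold, at -0.57 (edgeR adjusted p = 0.0109). That fit held only cows 1 and 3 and called 111 of 747 names, against 14 of 779 with all cows. For hsa-miR-26b-3p the levels were 13.7, 12.5 and 19.99 RPM on FD and 13.0, 15.6 and 15.8 RPM on HG, with a log2 fold change of -0.03 (SE 0.192, edgeR adjusted p = 0.972).

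In plasma of cows 1 to 4, hsa-miR-26a-2-3p had 15.9, 150, 3.42 and 1.29 RPM on FD and 47.5, 9.23, 12.2 and 24.1 RPM on HG. hsa-miR-26b-3p had 21.2, 156, 176 and 1.62 RPM on FD and 83.3, 142, 57.4 and 47.1 RPM on HG. These ranges of 116-fold and 109-fold compare with 2.22-fold and 1.60-fold in leucocytes. The lowest value came from 4 reads (1.29 RPM, 95% Wilson interval 0.503 to 3.33). In FD plasma of cow 2, the 214 reads of hsa-miR-26a-2-3p and the 223 reads of hsa-miR-26b-3p were each copies of 1 distinct sequence. No more than 3 and 5 distinct sequences were seen for these arms in any plasma library, where bta-miR-26a had 107 to 249.

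The diet test in plasma had little to say on these arms, with log2 fold changes of 1.05 (SE 1.66) and 0.82 (SE 1.5) and an edgeR adjusted p of 0.947 for both. Without the cow block the signs turned, to -1.06 and -0.59.

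**Figure D5:**
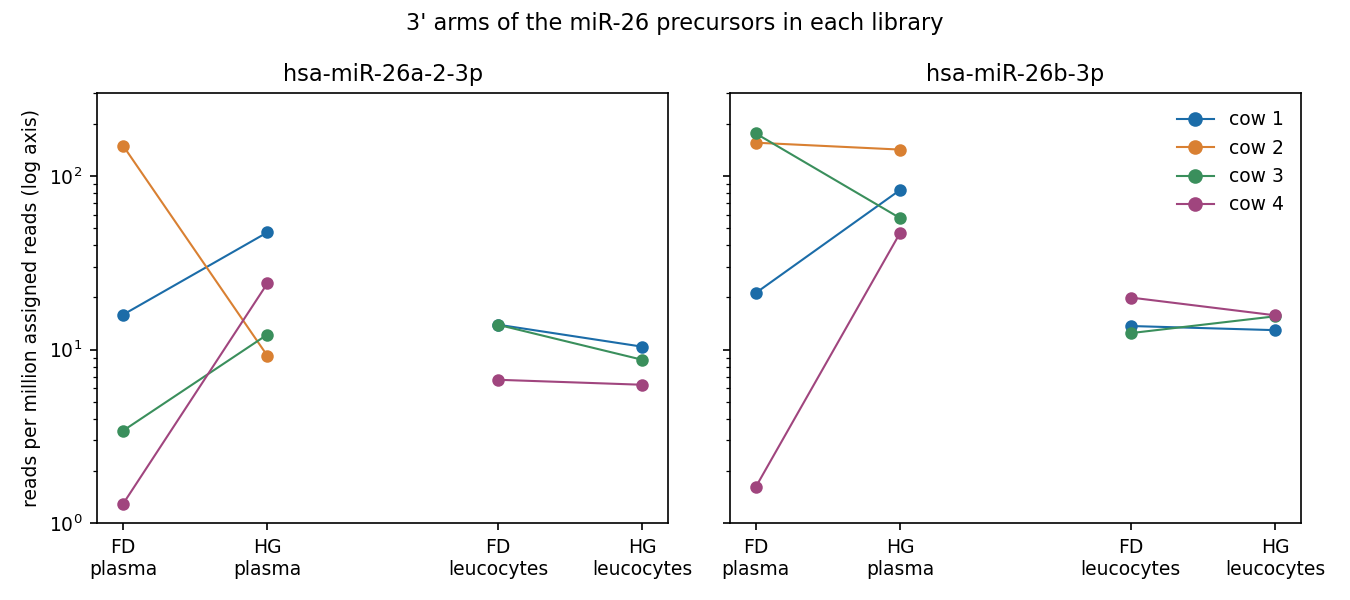
Reads scaled to 1e6 assigned reads (RPM, y axis, log scale) of hsa-miR-26a-2-3p and hsa-miR-26b-3p in 14 libraries by diet and sample type, with lines joining the libraries of a cow. Plasma values span 116-fold and 109-fold between libraries, and leucocyte values 2.22-fold and 1.60-fold.

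Other miRNAs known to repress EZH2, the textbook target of miR-26a, formed a list of 12 bovine names (bta-miR-101, bta-miR-138, bta-miR-124a, bta-miR-124b and 8 of the let-7 family), all of which were tested. EZH2 itself was not measured here. On diet in plasma, 0 of the 12 were called by edgeR, with 0 at an unadjusted p under 0.05, and their median log2 fold change was -0.20 beside 0.26 for all names. In leucocytes 1 of 12 rose on HG, bta-let-7b, by a log2 fold change of 0.55 (SE 0.120, edgeR adjusted p = 0.0455), and 0 fell. Over all names, edgeR called 0.385% as higher on HG. At an unadjusted p under 0.05 there were 4 of the 12 and 116 of all 779 names. The median of the list was 0.11 beside -0.02 for all names. The call of bta-let-7b was near the threshold and was lost under 6 other settings and without cow 1 or cow 3, although its log2 fold change stayed about as large, at 0.53 with library size alone (edgeR adjusted p = 0.0746), 0.66 without cow 1 (0.222) and 0.48 without cow 3 (0.990).

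Between plasma and leucocytes, the list split. On FD 5 of 12 were higher in plasma (bta-miR-124a, bta-miR-124b, bta-let-7b, bta-let-7c and bta-let-7e) and 1 was lower, bta-miR-101, with a log2 fold change of -2.05 (SE 0.389, edgeR adjusted p = 0.00556). Of all names, 17.3% were called higher and 25.8% lower in plasma on FD. On HG 3 were higher (bta-miR-124a, bta-miR-124b and bta-let-7e) and 4 were lower, bta-miR-101 at -3.17 (SE 0.226, edgeR adjusted p = 7.38e-05), bta-let-7d at -1.80, bta-let-7g at -1.78 and bta-let-7i at -1.81. Of all names, 16.3% were called higher and 38% lower on HG, close to the shares of the list. The last 3 were not lower with library size alone. The let-7 names are near-identical in sequence, as are both miR-124 names, so their divided counts are uncertain. The 2 miR-124 names were rare in leucocytes, at 1.65 to 10.2 CPM on FD. They had the same log2 fold change on FD, 3.42 (SE 1.02), and 3.07 and 3.06 on HG. In the counts above they thus stand for nearly 1 measurement listed under 2 names. Under TMM bta-miR-101 was lower in plasma, as was bta-miR-26a. On FD, bta-miR-101 had 3340 ± 266 CPM in leucocytes (SD, n = 3) and 1360 ± 778 CPM in plasma (SD, n = 4). On HG it had 3247 ± 238 CPM in leucocytes (SD, n = 3) and 1518 ± 351 CPM in plasma (SD, n = 4). The HG means of bta-miR-26a were not lower in plasma, at 12250 CPM in leucocytes and 12445 CPM in plasma.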

How the data were processed

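Small RNA libraries of plasma (8) and leucocytes (6) were demultiplexed by the authors with bcl2fastq 2.20, trimmed with Skewer, and assigned with sRNAbench (Bowtie, 2 mismatches) to bovine and human names of miRBase release 22 on UMD3.1. The authors deposited, per library, read counts (whole at each name), counts of distinct sequences, and estimated counts, in which a read is divided among its mappings. The deposited RPM columns were treated as a score and served only to recover the reads assigned. Further deposited tables of normalized values were not used. The estimated counts were rounded and tested with edgeR 4.0.16 in R 4.3.3 (robust quasi-likelihood test, TMM, names with at least 10 counts in total, Benjamini-Hochberg adjustment over all names, adjusted p under 0.05). The diet fits held cow plus diet, the sample type fits sample type alone (though both types share cows), and the interaction fit all 14 libraries with each cow in each sample type as a block.

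Leucocyte libraries were paired by the animal in their labels. Plasma libraries were paired by the cow numbers of the study, under which 504 of 504 listed plasma values and 198 of 198 leucocyte values equal the library files. Deviations from the group means correlated by 0.454 to 0.664 within cows and -0.614 to 0.314 between cows in leucocytes, and by -0.519 to 0.434 and -0.646 to 0.747 in plasma, where the profiles do not show the pairing. Replicates are cows. No libraries held identical values.

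Named were the miR-26 names, the 3 bovine names most like bta-miR-26a in each sample type, and listed EZH2 repressors past the test. The members and lists were chosen with earlier results of these data known. Alternatives were DESeq2 1.42.0 (also the tool of the authors), other scalings, no filter, undivided reads, identical names once, other block settings and each cow left out. The share of the assigned reads was added after seeing the data. The edgeR script was tested on simulated counts drawn without differences between cows, which does not give its error rate in these data. Mature sequences are not printed, since no sequence table was used here.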

Additional observations from a re-analysis of the deposited data

Results flagged for a closer look

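A library stood apart from the other 3 of its group in 3 of the 14 groups of 4 plasma libraries examined (gap over range above Dixon's 95% value). Chance flags about 1 in 20 groups where these are independent and hold normal values. The groups here share libraries and overlapping measures, so their number cannot be set against that rate. bta-miR-26a in FD plasma of cow 1 was at 14217 CPM, with the other cows at 6334 to 7009. bta-miR-26b in HG plasma of cow 1 was at 14673 CPM, with the others at 5705 to 6995. hsa-miR-26a-2-3p in FD plasma of cow 2 was at 191 CPM, with the others at 1.75 to 20.5, and its 214 reads were copies of 1 distinct sequence. The FD library of cow 1 had 376589 assigned reads, the fewest of the plasma libraries, and the HG library of cow 1 had 4464702, the most.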

How the results depend on the processing

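Leaving out each cow in turn moved the number of names called to 0 to 111 for diet in leucocytes (14 with all cows, 111 without cow 4), 131 to 289 for sample type on FD (321) and 258 to 364 on HG (397), with 0 to 0 for diet in plasma. The log2 fold changes of bta-miR-26a and bta-miR-26b then ran from -0.030 to 0.27 and -0.39 to 0.52 for diet in plasma, from -0.017 to 0.076 and -0.20 to -0.07 for diet in leucocytes, from -2.0 to -1.16 and -1.20 to -0.64 for sample type on FD, from -1.98 to -1.57 and -1.20 to -0.98 on HG, and from 0.03 to 0.26 and -0.00097 to 0.58 for the difference of the diet effects. On HG, bta-miR-26b passed without cow 1. The change in the share of bta-miR-26a in leucocytes ran from -0.0850 to 0.0694 percentage points and that of the plasma log2 ratio from -0.37 to 0.35. For the 3′ arms, diet in plasma gave -0.16 to 2.30 and -0.52 to 2.08 (-0.15 for hsa-miR-26b-3p without cow 1), and diet in leucocytes -0.57 to -0.23 and -0.17 to 0.10 (0.04 without cow 1).

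Without the replicate block for cow, 0 names were called for diet in leucocytes, and the 3′ arms in plasma turned to -1.06 and -0.59. With a block for cows 1, 3 and 4, 141 names were called between sample types on FD, and bta-miR-26b on HG passed at -1.24. The block changed no other call of a member. DESeq2 called 10 names for diet in plasma, 28 in leucocytes and 14 for the interaction, and gave bta-miR-26b -1.11 on FD, past the threshold. Median-of-ratios scaling called 9 names for diet in leucocytes and gave bta-miR-26b -1.11 on FD, also past it. With library size alone, bta-miR-26a was at -0.0088 for diet in leucocytes, -0.54 between sample types on FD and 0.023 on HG, bta-miR-26b at 0.75 on HG, and bta-let-7d, bta-let-7g and bta-let-7i at 0.13, 0.19 and 0.13. Without a filter, bta-miR-26a was at -0.0426 for diet in leucocytes. With identical names taken once, which leaves fewer names, 5 were called there, and bta-miR-26b on HG passed at -1.24. On undivided reads bta-miR-26b on HG passed at -1.28, the interaction of bta-miR-26a was -0.026, its share in leucocytes differed by 0.107 percentage points, and the log2 ratio was 1.67 and 1.59 in plasma (FD, HG) and 2.11 and 2.27 in leucocytes, where the division of the reads by construction sets the shift. For the other changes the cause was not tested. Of the remaining comparisons of a value with its alternative, 196 outside the leave-one-out settings were labelled the same. For a log2 fold change or a share, this means the same direction and side of the threshold. For a number of names called it means a similar number, and for the log2 ratio the same sign and a shift under its SD. The side of the threshold was fixed in advance for shares, since so few cows cannot pass it. The 3′ arms had as few as 4 reads in a plasma library.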
